A study of Mus musculus with 9 samples.

Results

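The 10 basal and suprabasal keratins of the epidermis were examined in the back skin of mice with DNCB-induced dermatitis, as the rows with the gene names Krt5, Krt14, Krt15, Krt1, Krt10, Krt2, Krt77, Krt78, Krt79 and Krt80. They were taken from a count table of 55401 genes, and all 10 passed the filter on low counts that left 20817 genes for testing. Krt5, Krt14 and Krt15 are the 3 basal members, and the other 7 are suprabasal. The comparison asked how far the keratins of FJDHF-M mice differed from those of Model mice.

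Both groups were male C57BL/6 mice aged 6 to 8 weeks. DNCB (2,4-dinitrochlorobenzene) is a small reactive molecule that raises a contact allergy when painted on skin. All animals were shaved, sensitised with 200 μL of 1% DNCB on day 1 and challenged with 100 μL of 0.5% DNCB from day 4 to day 21, so the controls carried the dermatitis too. The 5 FJDHF-M libraries came from mice fed the medium dose of Fangji Dihuang formulation, a herbal preparation, by mouth each day after day 7 until day 28, and the 4 Model libraries from mice given water in its place. Mice without DNCB were not analysed here.

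The libraries carry the codes MXL1, MXL12, MXL3_4 and MXL_3 (Model) and MR1, MR3, MR3_4, MR4_5 and MR5 (FJDHF-M), which none of the sources used here explains. The prefixes were assigned to the groups because the column numbers match the group sizes and because M and X begin the Chinese word for model. Every direction given here depends on that assignment. No code could be tied to a single mouse, and pooled RNA behind codes such as MR3_4 could not be checked, so n counts libraries and p-values measure the spread between them, which may be technical.

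Keratins are the intermediate filament proteins of epithelial cells, and a filament forms only when a type I keratin pairs with a type II keratin. Dividing cells of the basal layer make the pair Krt5 and Krt14. Cells that leave this layer switch to Krt1 and Krt10, which build the dense filament network of the suprabasal layers and, later, of the dead outer cells. In dermatitis the epidermis thickens and this switch is known to be disturbed.

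The genes lie in the 2 keratin clusters of the mouse genome, all on the minus strand (GRCm38). The type I genes Krt10, Krt15 and Krt14 span 822 kb of chromosome 11 (chr11:99385254-100207548), and the 7 type II genes span 607 kb of chromosome 15 (chr15:101347444-101954287). Krt1 occupies chr15:101845426-101850794, Krt10 chr11:99385254-99389364 and Krt77 chr15:101858731-101869705. The basal pair is at chr15:101707070-101712898 for Krt5 and chr11:100203162-100207548 for Krt14. These are whole-gene positions, exons, introns and UTRs included.

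The 250 bases before the annotated start are shown for Krt10 and Krt77, which differed in opposite directions at an unadjusted p below 0.05, and for basal Krt5, for contrast. Sequences are from RefSeq (GRCm38.p6), which gave a window for 7 of the 10 members, and capitals mark each match to TATANA on either strand, overlapping matches merged.
Krt10, chr11:99389365-99389614, minus strand: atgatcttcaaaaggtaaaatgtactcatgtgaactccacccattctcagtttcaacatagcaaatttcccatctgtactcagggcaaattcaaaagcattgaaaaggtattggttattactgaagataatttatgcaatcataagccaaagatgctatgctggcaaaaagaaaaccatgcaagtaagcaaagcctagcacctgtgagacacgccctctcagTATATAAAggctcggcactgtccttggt
Krt77, chr15:101869706-101869955, minus strand: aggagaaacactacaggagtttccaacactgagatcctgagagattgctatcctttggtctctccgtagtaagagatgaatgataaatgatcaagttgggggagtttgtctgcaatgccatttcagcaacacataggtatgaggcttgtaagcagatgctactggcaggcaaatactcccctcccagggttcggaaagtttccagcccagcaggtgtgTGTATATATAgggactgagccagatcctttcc
Krt5, chr15:101712906-101713155, minus strand: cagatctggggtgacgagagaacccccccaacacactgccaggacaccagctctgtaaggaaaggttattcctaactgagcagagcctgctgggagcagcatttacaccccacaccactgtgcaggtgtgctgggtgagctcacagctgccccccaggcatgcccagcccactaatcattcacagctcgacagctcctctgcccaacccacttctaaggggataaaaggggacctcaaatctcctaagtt

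TATANA, the core of the TATA box that positions RNA polymerase II, was found between 28 and 21 bases before the start of Krt10 and between 32 and 23 bases before that of Krt77. Krt2, whose window is not printed, had it between 29 and 24 bases before the start. The windows of Krt5, Krt78 and Krt79 held no match, nor did that of Krt14, which lies inside the gene span given above because RefSeq places the start elsewhere and so is not upstream of it. Over the whole table, 22.3% of 32536 windows of the same length held at least 1. GCCNNNGGC, a motif of AP-2 factors, and TGANTCA, the AP-1 motif, were in 13.8% and 6.73% of windows and in none of the 7 keratin windows. The windows thus separate Krt10, Krt77 and Krt2 from Krt5, Krt78 and Krt79 by a match to TATANA alone. Other forms of the TATA box were not searched for, so a window without a match may still hold such a box. The windows of Krt5 and Krt78 have ATAAAA shortly before the start, which TATANA does not match. The log2 fold changes of Krt10, Krt77 and Krt2 were 1.23, -2.10 and -0.26.

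Total counts per library lay between 74648669 and 79474215, and a count of 3, taken as the floor, is 0.0377 to 0.0402 CPM (counts scaled to library size) before TMM scaling. Over all 20817 genes, no gene was called by edgeR at an adjusted p of 0.05 and a 2-fold change, 326 genes had an unadjusted p below 0.05 (1.57%), and DESeq2's Wald test called 2 (0.00961%), neither of them a keratin. MXL12 stood apart in its summed neutrophil markers (1457 CPM against 43.0 to 126 in the other Model libraries). MXL_3 stood apart in muscle markers, at 17706 CPM against 616 to 4454, and in the lowest sum of pan-epithelial markers, 1452 CPM.

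By mean level per length (FPKM, fragments scaled for gene length and library depth), Krt10 led in both groups. The place of the Krt1 mean differed between them. Krt10 was at 809 ± 572 FPKM in Model (SD, n = 4) and 1908 ± 458 FPKM in FJDHF-M (SD, n = 5), and Krt1 at 368 ± 183 and 1044 ± 511 FPKM. Krt5 was at 619.5 ± 552 and 696 ± 371 FPKM and Krt14 at 428 ± 573 and 493 ± 318 FPKM. The mean of Krt1 was thus below that of both basal keratins in Model and above both in FJDHF-M. For Krt14 this change of order came from MXL1 alone (Krt1 626, Krt14 1287 FPKM), and every other Model library had more Krt1 than Krt14. In FJDHF-M, Krt1 was below Krt5 in MR3 (571 against 938 FPKM) and MR4_5 (1195 against 1209 FPKM). The median over the 9 libraries was 1535 FPKM for Krt10, 626 for Krt1, 556 for Krt5 and 263 for Krt14. Krt10 exceeded Krt1 in 9 of 9 libraries, Krt5 exceeded Krt14 in 9 of 9, and Krt1 exceeded Krt5 in only 4 of 9, so that Krt1 and Krt5 have no fixed order. Krt79 (88.1 FPKM) and Krt15 (75.8 FPKM) came next with Krt79 ahead in 4 of 9 libraries, then Krt80 (41.0), Krt77 (14.2) and Krt78 (10.4). Krt2 was far below, with a median of 0.155 FPKM. Its range was the only one in this order that did not overlap that of its neighbour. Krt2 is known in mice from ear, sole and tail skin more than from the back, and its 13 to 53 counts a library do not show it as a keratin of this tissue in more than traces.

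**Figure D1:**
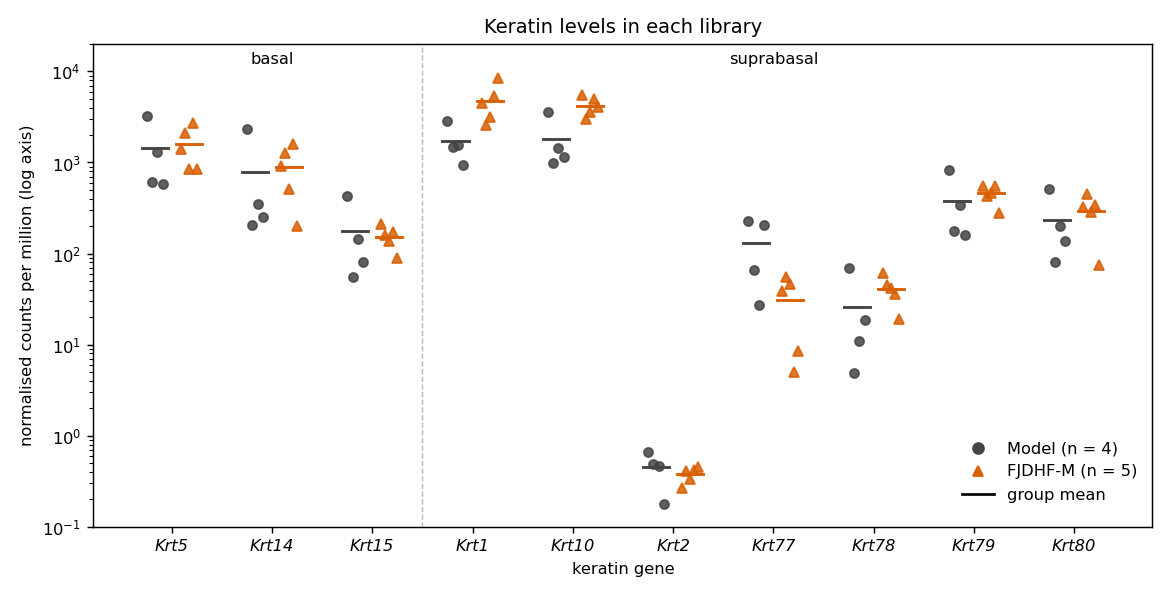
Normalised CPM (log axis) of each keratin in the 4 Model libraries (circles) and the 5 FJDHF-M libraries (triangles), with group means as lines. Krt1 and Krt10 in FJDHF-M lie above 3 of the 4 Model libraries, Krt77 lies mostly below, and the basal keratins overlap over the whole range.

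Krt1 and Krt10, the suprabasal pair, were the highest-ranking members, and both were higher in FJDHF-M. CPM below are scaled by edgeR's TMM factors, and fold changes are FJDHF-M over Model. Of the 10 keratins, 2 were higher and 1 lower at an unadjusted p below 0.05, against 0.773% and 0.793% of all genes tested. The adjusted p of each keratin rounded to 1.00, and in none did the groups separate fully (0.514% of all genes did, 0.231% higher and 0.283% lower in FJDHF-M). Members of a gene family in the same cells share their source and are not independent of each other.

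Krt1, the type II keratin of the spinous layer, was at 4505, 2562, 3149, 5358 and 8360 CPM in MR1, MR3, MR3_4, MR4_5 and MR5. The Model libraries MXL1, MXL12, MXL3_4 and MXL_3 had 2836, 1498, 1567 and 944.9 CPM. All FJDHF-M libraries were above 3 of the Model libraries, and MXL1 alone reached into their range, above MR3. The means were 4787 ± 2280 CPM (SD, n = 5) and 1711 ± 800 CPM (SD, n = 4), 2.80-fold apart. In edgeR's fit its log2 fold change was 1.48 (SE 0.41), with an unadjusted p = 0.00446 and an adjusted p = 1.00 by edgeR's quasi-likelihood test, which placed Krt1 14th of 20817 genes. The two-sided exact permutation test on log2(CPM + 0.5) gave p = 0.0238, where the smallest p that 126 splits allow is 0.00794.

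Krt10, the type I partner of Krt1, was at 5474, 2983, 3556, 4933 and 4094 CPM in the FJDHF-M libraries, in the same order. Model libraries held 3597, 997, 1446 and 1147 CPM. Again only MXL1 lay within the FJDHF-M range, and the other 3 Model libraries were all below it. The group means were 4208 ± 1008 CPM (SD, n = 5) and 1797 ± 1215 CPM (SD, n = 4), a 2.34-fold difference. The log2 fold change was 1.23 (SE 0.39; edgeR unadjusted p = 0.00996, adjusted p = 1.00), rank 51 of all genes, with an exact permutation p = 0.0238.

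Both differences kept their direction when any 1 library was left out, and edgeR's unadjusted p stayed below 0.05 each time. The log2 fold change of Krt1 then lay between 1.19 (without MR5) and 1.84 (without MXL1), and that of Krt10 between 1.03 (without MXL12) and 1.81 (without MXL1). The exact permutation p moved to 0.0571 at most for Krt1 and to 0.0857 at most for Krt10. With 1 library left out there are fewer than 126 splits, so the smallest p this test allows is then above 0.00794. The difference in these keratins was thus largest without MXL1, the Model library with the most of them.

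Whether a bulk skin sample holds more suprabasal cells or more keratin RNA per cell cannot be told apart. Of 15 pan-epithelial markers, such as the cadherin Cdh1, none had an unadjusted p below 0.05, their median log2 fold change was 0.15, and their sum was 1452 to 4276 CPM in Model and 3161 to 5006 CPM in FJDHF-M. With the mean level of these markers as a covariate, an alternative chosen after seeing the data, the log2 fold changes were 1.502 for Krt1 and 1.21 for Krt10. Fibroblast markers had 1 of 10 genes lower (Col3a1) and summed to 26604 to 47237 CPM in Model against 19028 to 33881 CPM in FJDHF-M. Muscle markers had 0 of 10, at 616 to 17706 against 2061 to 10751 CPM, and with their level as covariate Krt1 and Krt10 were at 1.51 and 1.23. Neutrophil markers had 2 of 12 lower (Mmp8 and Trem1), at 43.0 to 1457 against 70.3 to 234 CPM. The groups separated fully in Mmp8 (exact permutation p = 0.00794). In Trem1 they overlapped, at 0.304 to 85.2 CPM in Model and 0.212 to 3.65 CPM in FJDHF-M (exact permutation p = 0.778). No marker of these lists was at 0 in every library, and the part of fibroblasts and neutrophils in the keratin differences was not tested.

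**Figure D2:**
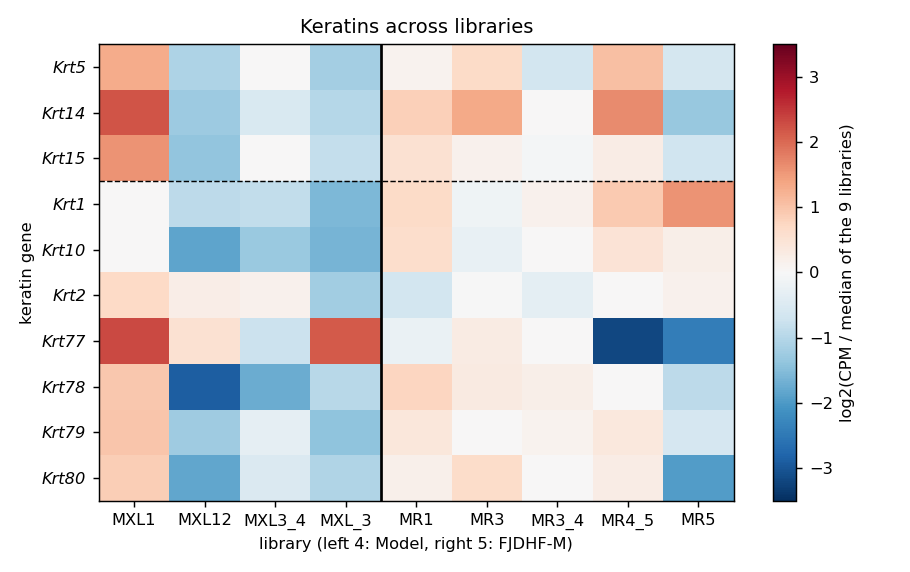
Level of each keratin (rows) in each library (columns) as log2 of CPM over the median of the 9 libraries, red for above and blue for below; the solid line separates Model (left) from FJDHF-M and the dashed line basal from suprabasal genes. MXL1 is the highest library for 8 of 10 keratins, while the other Model libraries are low for Krt1 and Krt10.

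Krt77, a type II keratin close to Krt1 that is known from suprabasal epidermis and from sweat gland ducts, was lower in FJDHF-M at an unadjusted p below 0.05. It was at 227.8, 66.26, 27.38 and 203.9 CPM in MXL1, MXL12, MXL3_4 and MXL_3. The FJDHF-M libraries MR1, MR3, MR3_4, MR4_5 and MR5 had 38.63, 55.68, 45.76, 5.014 and 8.552 CPM. Model held the 3 highest libraries, but MXL3_4 lay among the treated ones, and within each group the values spread widely, 45.4-fold from lowest to highest over all 9. On the log2 scale Krt77 was at -2.10 (SE 0.77), a ratio of 0.234, with an edgeR unadjusted p = 0.0215 and an adjusted p = 1.00 (rank 122). The exact permutation test gave p = 0.0952.

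Krt77 stayed lower with any 1 library left out, but its unadjusted p was above 0.05 without either of 2 Model libraries. Without MXL1 the log2 fold change was -1.69 (unadjusted p = 0.0661, edgeR), and without MXL_3 it was -1.80 (unadjusted p = 0.0565, edgeR). Krt77 and Krt1 had Pearson's r = -0.70 over the 9 libraries, given as a description without a test since the libraries include both groups.

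The remaining suprabasal members did not pass at an unadjusted p. Krt2, the keratin of the upper spinous and granular layers, had 0.671, 0.490, 0.465 and 0.180 CPM in the Model libraries and 0.266, 0.412, 0.331, 0.416 and 0.459 CPM in the FJDHF-M libraries. Both groups were low and the FJDHF-M range lay inside that of Model, with a log2 fold change of -0.26 (SE 0.44; edgeR unadjusted p = 0.571). Without MXL1 that value was -0.0056.

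Krt78, a type II keratin of suprabasal epidermis, had 69.2, 4.92, 10.9 and 18.6 CPM in MXL1, MXL12, MXL3_4 and MXL_3, and 61.7, 44.9, 41.9, 36.3 and 19.3 CPM in MR1, MR3, MR3_4, MR4_5 and MR5. As for Krt1 and Krt10, MXL1 was high, and here it was the highest of all, with the other 3 Model libraries below every treated one. For Krt78 the log2 fold change was 0.66 (SE 0.65; edgeR unadjusted p = 0.338; exact permutation p = 0.159), and without MXL1 it was 1.83 (edgeR unadjusted p = 0.00367).

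Krt79, which also marks the funnel of the hair follicle, was at 834, 179, 343 and 160 CPM in the Model libraries and at 556, 426, 467, 554.5 and 282 CPM in the FJDHF-M libraries. Krt80, a type II keratin found near desmosomes in many epithelia, was at 517, 81.5, 201 and 139 CPM in Model and at 322, 449, 287, 344 and 74.4 CPM in FJDHF-M. In both genes MXL1 was the highest of the 9 libraries and the rest of the Model group lay mostly below the treated libraries, of which MR5 was the lowest. Their log2 fold changes were 0.27 (SE 0.46; edgeR unadjusted p = 0.568) and 0.33 (SE 0.57; edgeR unadjusted p = 0.571). Without MXL1 they were 1.01 (edgeR unadjusted p = 0.0106) for Krt79 and 1.07 (edgeR unadjusted p = 0.0634) for Krt80.

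The basal keratins did not separate the groups. Krt5, the type II keratin of the basal layer, was at 3202, 614, 1311 and 575.0 CPM in MXL1, MXL12, MXL3_4 and MXL_3, and at 1418, 2096, 843, 2698 and 849 CPM in MR1, MR3, MR3_4, MR4_5 and MR5. The highest and the 2 lowest libraries were all Model, so the treated range lay inside that of the controls. This gave a log2 fold change of 0.15 (SE 0.55; edgeR unadjusted p = 0.792; exact permutation p = 0.587).

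Krt14, its type I partner, had 2323, 208, 347 and 252 CPM in Model and 908, 1273, 506, 1592 and 203 CPM in FJDHF-M. The SD of the Model group (1029 CPM around a mean of 782) was larger than its mean, through MXL1, and MR5 was the lowest library of all. Its log2 fold change was 0.20 (SE 0.79; edgeR unadjusted p = 0.808; exact permutation p = 0.492). Krt15, a type I keratin of basal cells and of follicle stem cells, had 429, 54.7, 144 and 79.9 CPM in Model and 210, 160, 136, 173 and 89.2 CPM in FJDHF-M, and all treated libraries again lay inside the Model range. Its log2 fold change was -0.20 (SE 0.53; edgeR unadjusted p = 0.709), while the mean difference on log2(CPM + 0.5) was 0.20 (exact permutation p = 0.754), so its direction is not determined.

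The direction of the basal members turned on single libraries. Leaving out 1 library at a time moved the log2 fold change of Krt5 between -0.13 (without MR4_5) and 0.92 (without MXL1), that of Krt14 between -0.12 (without MXL12) and 1.74 (without MXL1, edgeR unadjusted p = 0.0156), and that of Krt15 between -0.50 (without MXL12) and 0.73 (without MXL1). With the pan-epithelial covariate, Krt5 was at -0.045 and Krt14 at -0.0089.

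**Figure D3:**
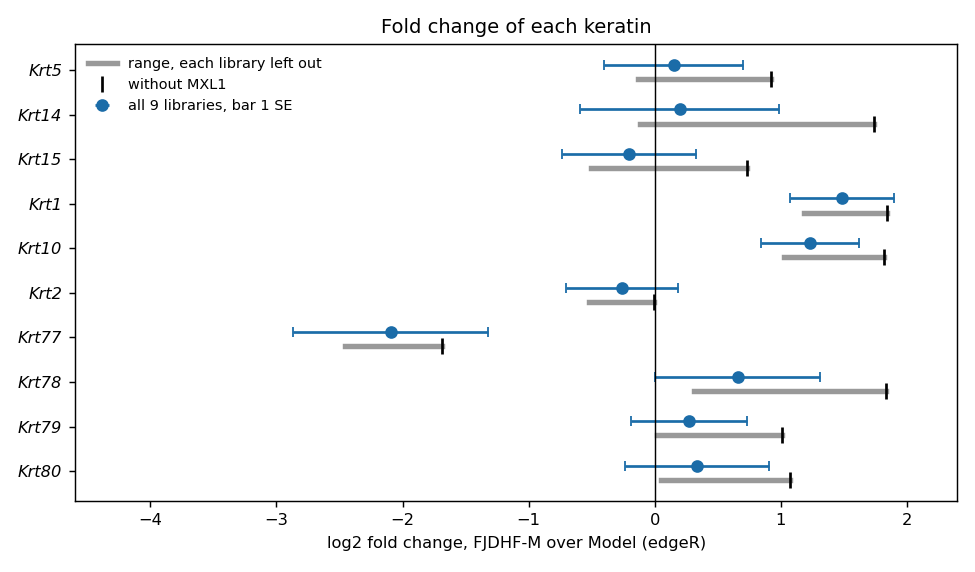
Log2 fold change of each keratin, FJDHF-M over Model, from edgeR (points, bars of 1 SE), with the range when each library is left out in turn (grey) and the value without MXL1 (black tick). Krt1 and Krt10 stay above 0 and Krt77 below 0 throughout, while Krt5, Krt14 and Krt15 cross 0.

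Over the 10 keratins, 7 log2 fold changes were above 0 and 3 below, with a median of 0.23, beside a median of -0.032 over all genes tested. The median was -0.041 without MXL_3 and 1.04 without MXL1. MXL1 was the highest library for 8 keratins, all but Krt1 and Krt10, while MXL_3 was the lowest for 4 and MXL12 for 3. Together the 10 genes took 1.43% of all counts in MXL1 and 0.368%, 0.526% and 0.341% in the other Model libraries, against 0.871% to 1.62% in FJDHF-M. The keratin share of the RNA thus differed more between MXL1 and the rest of its group than between MXL1 and the treated libraries. A value without MXL1 removes a library for its position in these same data, so it describes the dependence and is no better estimate.

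The question whether suprabasal keratins differed relative to basal ones was put as a ratio of FPKM values within each library, which no scaling between libraries can change. Krt1 over Krt5 was 0.441, 1.21, 0.595 and 0.818 in MXL1, MXL12, MXL3_4 and MXL_3, and 1.58, 0.608, 1.86, 0.988 and 4.90 in MR1, MR3, MR3_4, MR4_5 and MR5. The groups overlapped, and MR5 was the highest by a wide margin. The mean difference was 1.11 on the log2 scale (exact permutation p = 0.119, adjusted over the 5 ratios p = 0.298).

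Krt10 over Krt14 was 1.29, 3.99, 3.47 and 3.78 in the Model libraries and 5.02, 1.95, 5.85, 2.58 and 16.8 in the FJDHF-M libraries. MXL1 was the lowest and MR5 again the highest, and MR3 and MR4_5 lay below 3 of the Model libraries. The difference was 0.74 on the log2 scale (exact permutation p = 0.365, adjusted p = 0.575). The shift from the basal to the suprabasal pair was therefore not resolved by these 9 libraries.

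Within each pair the ratio of the partners did not separate the groups. Krt1 over Krt10 lay between 0.378 and 0.719 in Model and between 0.394 and 0.978 in FJDHF-M, with a difference of 0.075 on the log2 scale (exact permutation p = 0.778, adjusted p = 0.778). Krt5 over Krt14 lay between 1.10 and 3.03 in Model and between 1.25 and 3.35 in FJDHF-M, with a difference of -0.30 (exact permutation p = 0.460, adjusted p = 0.575). Across the libraries, Pearson's r of log2(CPM + 0.5) was 0.93 for Krt5 and Krt14 and 0.88 for Krt1 and Krt10, but 0.38 for the type II genes Krt5 and Krt1. These correlations are descriptions over 9 libraries that share depth and tissue makeup.

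Krt2 over Krt1 was the only ratio whose groups did not overlap, at 0.000306 to 0.000545 in Model and 9.24e-05 to 0.000269 in FJDHF-M. The difference was -1.60 on the log2 scale (exact permutation p = 0.0159, adjusted p = 0.0794). Its numerator rests on 13 to 53 counts a library, and Krt2 itself differed by -0.26, so most of the difference is that of Krt1.

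**Figure D4:**
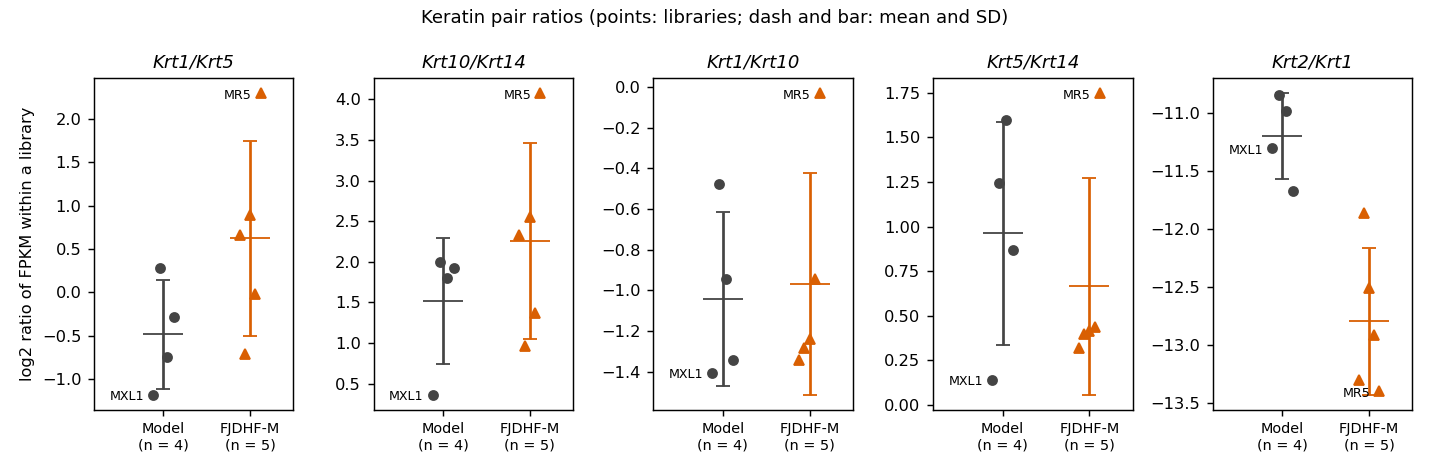
Log2 ratio of FPKM within each library for 5 keratin pairs, with points for libraries and mean and SD per group; MXL1 and MR5 are named. MR5 is the highest library for the first 4 ratios, and the groups are apart only for Krt2/Krt1.

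The genes whose levels followed each keratin most closely were listed among 15706 genes with a mean of at least 1 CPM, by Pearson's r over the 9 libraries and with no test. For Krt5 these were Sdc1, Camsap3, Hook2, Ppl and Trim29 (r from 0.96 to 0.99), and for Krt14 Atg9b, Jup, Dusp7, Aldh3b2 and Rapgefl1 (0.98 for each). Sdc1 is a cell surface proteoglycan, and Ppl and Jup are parts of desmosomes, the junctions on which keratin filaments end. For Krt1 they were Serpinb12, Sec11c, Them5, Rgs20 and Sox7 (0.96 to 0.99), and for Krt10 Hrnr, Serpina12, Slc5a9, Pou2f3 and Il1f5 (0.94 to 0.97). Hrnr encodes a protein of the cornified layer, and no gene stood in more than 1 of the 4 lists.

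Other keratin families of the skin gave no gene at an unadjusted p below 0.05. Of the 4 stress keratins, which appear in wounded and inflamed epidermis, Krt16 was at 218 ± 239 CPM in Model (SD, n = 4) and 541 ± 419 CPM in FJDHF-M (SD, n = 5; edgeR unadjusted p = 0.114), and Krt6a at 467 ± 286 and 614 ± 525 CPM (edgeR unadjusted p = 0.551). The median log2 fold change of these 4 genes was 0.80. Without MR4_5 it was -0.012, with 2 genes above 0 and 2 below, so it turned on that library. The 8 keratins of the inner root sheath, the sleeve around the growing hair, had a median of 0.12, with Krt71 at 0.18 (edgeR unadjusted p = 0.762) and Krt25 at -0.042 (edgeR unadjusted p = 0.946). For 11 hair shaft keratins it was 0.51, with Krt33a at 0.47 (edgeR unadjusted p = 0.509) and Krt83 at 0.91 (edgeR unadjusted p = 0.357). For 6 simple epithelial keratins it was 0.065, with Krt23 at -0.032 (edgeR unadjusted p = 0.933) and Krt18 at -0.025 (edgeR unadjusted p = 0.935). Without MR3 the hair shaft median was -0.51, with 10 of the 11 below 0. That of the inner root sheath was then -0.46 and that of the simple epithelial keratins -0.082, so all these directions changed without this library. The inner root sheath median was also below 0 without MR4_5 (-0.071), MXL12 (-0.020) or MXL_3 (-0.13). That of the simple epithelial keratins was also below 0 without MXL12 (-0.10).

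Of 17 genes that anchor or bundle keratin filaments, 1 was higher at an unadjusted p below 0.05, and the median log2 fold change was 0.11. That gene was Flg, whose product filaggrin bundles keratin filaments in the outer layers. It was at 152 to 378 CPM in Model and 346 to 1197 CPM in FJDHF-M, with a log2 fold change of 1.36 (edgeR unadjusted p = 0.00613). None of its desmosomal genes passed, among them Dsp and Pkp1, whose products tie keratin filaments to the junction.

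Transcription factors that act on keratin genes or on epidermal differentiation had a median log2 fold change of 0.33, and none was lower at an unadjusted p below 0.05. Klf4, a factor of the barrier-forming layers, was at 147 to 228 CPM in Model and 189 to 304 CPM in FJDHF-M (log2 fold change 0.62, edgeR unadjusted p = 0.0100).

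The genes of late differentiation, made after Krt1 and Krt10 as cells cornify, gave the highest share of the lists examined. Of 11, all had a log2 fold change above 0, 6 were higher at an unadjusted p below 0.05 and none was lower, and the median was 0.70. Over all 20817 genes tested, 9186 had a log2 fold change above 0, and 0.773% were higher and 0.793% lower at that p. Leaving out 1 library at a time, an alternative for gene lists chosen after seeing the data, left 5 to 8 of the 11 higher. Casp14, a protease that helps to break down filaggrin, had the smallest p of all genes tested (log2 fold change 1.42, edgeR unadjusted p = 0.00021), at 126 to 282 CPM in Model and 358 to 622 CPM in FJDHF-M. Ivl, a cross-linked envelope protein, was likewise separate at 67.6 to 161 and 165 to 208 CPM (0.70, edgeR unadjusted p = 0.0159). Flg, Hrnr (1.07), Krtdap (0.99) and Dmkn (0.69) were the other 4. This list was drawn up with the differentiation pattern of these libraries already known, so its count is no independent evidence.

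**Figure D5:**
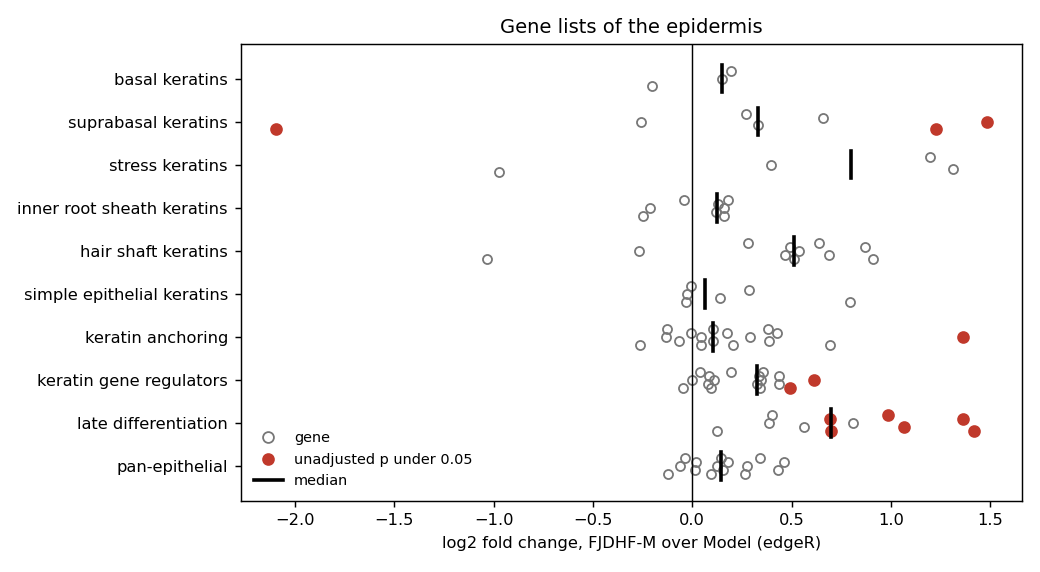
Log2 fold change, FJDHF-M over Model, of each gene (points) in the keratin families and related gene lists, with list medians as black bars and filled points for an unadjusted p below 0.05. Filled points lie among the suprabasal keratins (Krt1 and Krt10 to the right, Krt77 to the left), anchoring genes, regulators and late differentiation genes.

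The remaining markers of skin cells are given by their medians. The median log2 fold change was -0.075 for 10 proliferation genes, 0.19 for adipocyte, 0.21 for macrophage, 0.14 for T cell, 0.65 for melanocyte, -0.071 for endothelium and -0.34 for sebocyte markers. It was -0.41 for fibroblast and -0.22 for muscle markers, the latter 1.17 without MXL_3. For 12 neutrophil markers it was -1.16, and without MXL12 it was 0.63, with 9 of the 12 above 0, so its direction turned on MXL12. Single libraries also changed the sign for proliferation (0.12 without MXL12) and adipocyte markers (-0.22 without MR3_4). The same held for T cell (-0.048 without MR1) and endothelium markers (0.27 without MXL_3). The macrophage, melanocyte, fibroblast and sebocyte medians kept their direction with each library left out. Mc5r, a sebocyte gene, was the only further one at an unadjusted p below 0.05, and it was lower.

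Some reads of the keratins can be shared with other genes. Windows of 100 bases found also in other transcripts made up 3.81% of the Krt5 transcript (Gm44323, Gm5478 and Krt6a), 2.88% of Krt14 (Krt16) and 1.86% of Krt80 (Gm35853), and 0% of the other 7. Krt5, Krt10 and Krt80 overlap a gene on the opposite strand by 129, 146 and 263 exon bases. The libraries were strand-specific, but whether counting used the strand is not given in the sources used here, so reads in those stretches cannot be assigned with certainty.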

How the data were processed

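Polyadenylated RNA from mouse back skin was sequenced from both ends. The authors deposited whole-number read counts per gene, not normalised, and FPKM values, which the authors scaled for gene length and depth. The submitters' processing notes name mm10, HISAT, StringTie and DESeq2, without versions; their roles, the annotation release and the use of strand in counting are not given in the sources used here. The FPKM table also held 9 columns of per-library values that were not used. Total counts per library lay between 74648669 and 79474215, and intervals of this depth cover counting error only.

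Members were found by gene name and joined by gene ID. Counts were tested over all genes with edgeR 4.0.16 in R 4.3.3 (filterByExpr, TMM factors, quasi-likelihood test, Benjamini-Hochberg adjustment, no covariate, called at an adjusted p of 0.05 and 2-fold). Single genes and FPKM ratios were also tested with two-sided exact permutation tests over 126 splits, on log2(CPM + 0.5) for genes. Steps were tested on simulated data. Alternatives were DESeq2 1.42.0, limma 3.58.1 on log2(FPKM + 1), other scalings, filters, covariates and pseudocounts, a replicate block, ranks, and leaving out each library. Positions came from the deposited table and GENCODE M21, and promoters from RefSeq.

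The members and gene lists were chosen with earlier results of these data known. Genes outside the 10 were named by rule: in each related list every gene with an unadjusted p below 0.05 or, in lists without one, the 2 with the highest mean FPKM, and for 4 keratins the 5 genes most alike. Col3a1, Mmp8, Trem1 and Mc5r, and genes named in the closing section, were chosen after their values were seen. Dsp and Pkp1, the 2 anchoring genes with the highest mean FPKM, were named beside Flg. Cdh1 was named only as an example of its list. One gene named by this rule is left out of the text. Krt85 was not analysed here.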

Additional observations from a re-analysis of the deposited data

Results flagged for a closer look

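In 30 comparisons of the highest or lowest library with the rest of its group, over the 10 keratins and 5 ratios, 3 gaps passed the 95% limit of Dixon's test, where chance gives about 1.5. Krt80 in MR5, at 74.4 CPM where the rest of its group had 287 to 449 CPM, had a gap of 0.751 of the group's range on the log2(CPM + 0.5) scale. Krt10 over Krt14 in MXL1, at 1.29 where the rest of Model had 3.47 to 3.99, had a gap of 0.876 of the range of log2 ratios. Krt5 over Krt14 in MR5, at 3.35 where the rest of its group had 1.25 to 1.36, had a gap of 0.918 of that range.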

How the results depend on the processing

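The adjusted p of every keratin stayed above 0.05 under each alternative, down to 0.209 (Krt10 without MXL1). Krt1, Krt10 and Krt77 kept their direction throughout. Genes called were 0 by edgeR, 2 by DESeq2's Wald test (Casp14 and Defb8) and 1 with the skeletal muscle covariate (Rptn), and 0 under the other alternatives. Genes at an unadjusted p below 0.05 numbered 326, 905 with no filter on low counts, and 217 to 734 when each library was left out. The median log2 fold change of the 10 keratins was then -0.041 to 1.04. Directions that reversed were those of Krt15 with limma on FPKM (0.22), of Krt5 (-0.045) and Krt14 (-0.0089) with the pan-epithelial covariate, and, when libraries were left out, of Krt5 (-0.13 to 0.92), Krt14 (-0.12 to 1.74), Krt15 (-0.50 to 0.73), the Krt1/Krt10 ratio (-0.16 to 0.26) and the permutation differences of Krt15 (-0.20 to 0.78) and Krt2 (-0.25 to 0.013). The cause was not tested. Left out in turn, the permutation differences of Krt1 lay between 1.22 and 1.75, of Krt10 between 1.18 and 1.80, of Krt78 between 0.65 and 1.87 and of Krt79 between 0.26 and 1.05, and the first 2 passed an exact p of 0.05 only in some. With ranks, Krt10 had an exact permutation p = 0.0635. The other log2 fold changes kept their direction.

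Codes shared by both groups (1, 3 and 3_4) gave correlations of deviations of 0.22, 0.12 and -0.22. Libraries with different numbers were not compared in this way, so these values cannot decide whether the numbers pair the samples. With the replicate block on those 6 libraries, 256 genes passed at an unadjusted p, Krt1 was at 1.04, Krt10 at 1.09, Krt77 at -1.30 (edgeR unadjusted p = 0.105) and Krt5 reversed at -0.040.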
